A study of Mus musculus with 6 samples.

Results

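Cytokine mRNA decay factors are RNA-binding proteins and ribonucleases that set how long the messages of inflammatory genes last. The genes of this kind studied here were taken by symbol from the gene count table of N9 microglia: Zfp36, Zfp36l1, Zfp36l2, Zc3h12a, Zc3h12c, Rc3h1, Rc3h2, Elavl1 and Khsrp, 9 of 54532 genes listed. N9 is an immortalised mouse microglial line. The study compared N9 cells stimulated with LPS, the bacterial cell wall component sensed by Toll-like receptor 4, at 1 µg/ml for 6 h (3 libraries) with untreated control cells (3 libraries). Total RNA was measured by RNA-seq, and nothing in the labels says whether the 3 libraries of a group came from separate cultures, so P-values measure the spread between these libraries, which may be technical.

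Many cytokine mRNAs carry AU-rich elements (ARE), runs of overlapping ATTTA pentamers in the 3′ UTR (U in the RNA). Zfp36 (tristetraprolin) and its relatives Zfp36l1 and Zfp36l2 bind them and recruit the CCR4-NOT deadenylase, which shortens the poly(A) tail. Zc3h12a (Regnase-1) and Zc3h12c (Regnase-3) are endoribonucleases, and Regnase-1 and the Roquin proteins, encoded by Rc3h1 and Rc3h2, recognise small stem-loops with a loop of 3 bases. Khsrp (KSRP) binds ARE and promotes decay, whereas Elavl1 (HuR) binds ARE and U-rich RNA and is best known for stabilising it. Several of these factors are known to act on their own messages or on those of their relatives.

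The 3′ UTRs of the decay factor genes were searched for the letters that these proteins are known to bind. In 1 coding transcript a gene from GENCODE release M21 (the one with the longest coding sequence), the nonamer TTATTTATT, the ARE core bound by Zfp36 proteins, was found in 6 of the 9 decay factors, and it was found in 6.91% of the 3′ UTRs of 20658 genes. The search read the transcript strand only, and overlapping matches were counted separately. The 3′ UTRs of the 9 genes were longer (median 1835 bases) than those of all genes (median 798 bases). Among 3′ UTRs of 0.8 to 1.25 times the length of the gene's own, the nonamer was present in 4.55% for Zfp36, 9.62% for Zfp36l1, 9.54% for Zfp36l2, 17.9% for Elavl1, 27.1% for Rc3h1 and 21.9% for Rc3h2. Zfp36, Zfp36l1, Zfp36l2, Rc3h1 and Rc3h2 each had 1 nonamer and Elavl1 had 8. These letters were not found in the 3′ UTRs of Zc3h12a, Zc3h12c and Khsrp. The 3 Zfp36 family sites and the first run of Elavl1 nonamers are shown because the proteins of these genes bind such letters themselves. The Elavl1 run holds 4 of its 8 nonamers. Tnf, the classical ARE message and target of Zfp36, stands beside them. Sequences are from GRCm38, 5′ to 3′ on the transcript strand, DNA letters, with the nonamers in capitals. All lie in 3′ UTRs on the minus strand: Zfp36 at chr7:28376950-28376979, Zfp36l1 at chr12:80108166-80108195, Zfp36l2 at chr17:84184913-84184942, Elavl1 at chr8:4285781-4285810 and Tnf at chr17:35199679-35199708.
Zfp36: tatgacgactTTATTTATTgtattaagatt
Zfp36l1: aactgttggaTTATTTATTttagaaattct
Zfp36l2: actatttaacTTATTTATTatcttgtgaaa
Elavl1: aaaaTTATTTATTTATTTATTTATTtttat
Tnf: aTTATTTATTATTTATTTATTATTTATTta

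Stem-loops of the Roquin and Regnase kind were searched as a loop of TAT or TGT between perfectly paired stems of at least 5 bases. They were found in Zc3h12a (1), Rc3h1 (4, of which 2 overlap) and Rc3h2 (2), that is in 3 of the 9 decay factors, against 9.75% of all 3′ UTRs. Among 3′ UTRs of like length the share was 7.41% for Zc3h12a, 41.6% for Rc3h1 and 33.3% for Rc3h2, so for the long Roquin 3′ UTRs such a match is common. The stem-loop of Zc3h12a, 1 from each Roquin gene and that of Tnf are shown with the stems in capitals and the loop in lower case. The Rc3h1 and Rc3h2 matches shown are the same 15 letters. The other matches in these genes have other letters. A match describes these letters and does not show that a protein binds there. They lie in 3′ UTRs on GRCm38, Zc3h12a at chr4:125118662-125118678 (minus strand), Rc3h1 at chr1:160971660-160971674 (plus strand), Rc3h2 at chr2:37373809-37373823 (minus strand) and Tnf at chr17:35199585-35199599 (minus strand).
Zc3h12a: ATTTAAAtatTTTAAAT
Rc3h1: AACTTCtgtGAAGTT
Rc3h2: AACTTCtgtGAAGTT
Tnf: GTTTTCtgtGAAAAC

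Total counts lay between 16363767 and 17956772 a library, and 3 counts corresponded to between 0.161 and 0.19 CPM (the count scaled to the library size, with TMM factors of 0.965 to 1.04). Of 13 microglia and macrophage markers, 11 passed the filter on low counts, with a summed level of 2155 to 2219 CPM in control and 2365 to 2427 CPM in LPS libraries, whereas Aif1 had 4 to 9 and P2ry12 had 3 to 6 counts in every library. Of 22 markers of astrocytes, neurons, oligodendrocytes and endothelium, 15 stayed under 20 counts in every library, among them Aqp4, Rbfox3, Mog and Cldn5 with at most 2. The others were counted in every library: Gja1 (1151 to 1279 counts), Flt1 (816 to 1264), Mbp (457 to 672), Aldh1l1 (350 to 534), Map2 (252 to 432), Tubb3 (58 to 231) and Syp (11 to 34). Of these, Tubb3 (log2FC = 1.67, edgeR adjusted P-value 7.27e-07) and Gja1 (0.18, 0.00989) were higher with LPS, while Map2 (-0.41, 0.00221), Flt1 (-0.35, 4.64e-04), Mbp (-0.34, 0.00284) and Aldh1l1 (-0.29, 0.0129) were lower. The summed levels in control and LPS libraries were 96.0 to 98.7 and 96.0 to 104.6 CPM for the astrocyte list, 28.1 to 29.5 and 29.6 to 33.0 CPM for the neuron list, 33.6 to 40.0 and 28.3 to 29.6 CPM for the oligodendrocyte list, and 65.5 to 71.9 and 52.0 to 58.1 CPM for the endothelial list. The part of these markers in the results was not tested. Transcripts of 12 hepatocyte genes summed to between 0.467 and 25.9 CPM in control and between 0.127 and 0.731 CPM in LPS libraries, with Alb at 2, 155 and 292 counts in control replicates 1, 2 and 3 and at 2, 0 and 0 counts in the LPS libraries. Calls that change without control replicates 2 and 3 are named where they occur, and the part of these transcripts in them was not tested.

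Both Regnase genes rose with LPS, far more than any other decay factor. Zfp36 and Rc3h1 rose by less than 1.5-fold, Elavl1 by less still, Khsrp fell slightly, Zfp36l2 and Rc3h2 did not pass the test, and Zfp36l1 was too low to test. In bulk RNA, fewer cells of a kind and less RNA per cell cannot be told apart. In all, 8 of the 9 genes passed the filter on low counts, as did 12296 genes of the table. With edgeR's quasi-likelihood test and an FDR-adjusted P-value under 0.05, 5 of these 8 were higher with LPS, where 18.7% of all genes tested were, and 1 was lower, where 15.7% of all genes tested were. Zc3h12a and Zc3h12c were also differentially expressed genes (DEG) by the study's thresholds (log2FC over 1.5), which 2.4% of all genes tested passed in this direction. The LPS and control libraries did not overlap for 6 of the 8, against 45.3% of all genes tested. The median log2FC of the 8 genes was 0.22, beside a median of 0.00 over all tested genes, which had -0.57 and 0.86 as the 5th and 95th percentiles. Of all calls, 54.3% were higher with LPS, a share that was 31.3% when libraries were scaled by total count and 42.5% by upper quartiles.

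**Figure D1:**
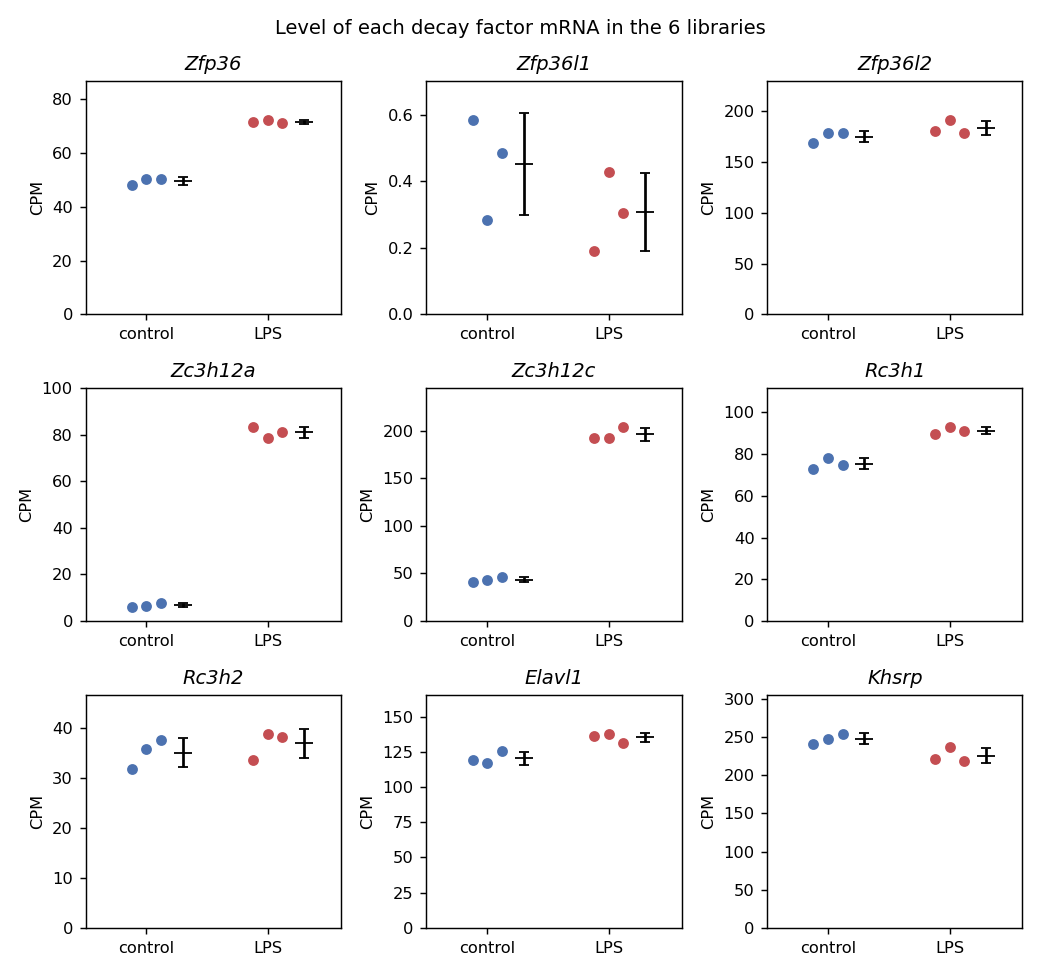
CPM of each of the 9 decay factor genes in the 3 control and the 3 LPS libraries, 1 point a library, with the group mean as a line and an axis of its own for each gene. The LPS libraries of Zc3h12a (78.7 to 83.4 CPM) and Zc3h12c (192 to 204 CPM) lie far above their controls (6.25 to 7.64 and 40.6 to 46.6 CPM), while those of Zfp36l1, Zfp36l2 and Rc3h2 overlap their controls.

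Zc3h12a encodes Regnase-1, which cleaves stem-loop messages such as Il6 mRNA and its own. The gene (ENSMUSG00000042677, chr4:125118423-125127840, minus strand) had 6.25, 6.63 and 7.64 CPM in control and 83.4, 78.7 and 81.2 CPM in LPS libraries, from 107 to 142 and from 1291 to 1334 counts. The lowest LPS library was thus about an order of magnitude above the highest control. Its mean went from 6.84 ± 0.719 to 81.1 ± 2.34 CPM (SD, n = 3), a log2FC of 3.56 (SE 0.08, 95% interval 3.39 to 3.73) or 11.8-fold, with an edgeR adjusted P-value of 5.85e-14. Only 72 of the 12296 genes tested had a higher log2FC.

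Zc3h12c encodes Regnase-3, a relative with the same kind of nuclease domain that is found mainly in myeloid cells. This gene (ENSMUSG00000035164, chr9:52111344-52168572, minus strand) had 40.6, 43.5 and 46.6 CPM in control and 192, 192 and 204 CPM in LPS libraries. All 3 LPS libraries lay above all controls, with group means of 43.5 ± 3.01 and 196 ± 6.77 CPM (SD, n = 3). The log2FC was 2.17 (SE 0.06, 95% interval 2.05 to 2.29), or 4.50-fold, at an edgeR adjusted P-value of 3.07e-13, and 171 genes tested had a higher one. Without both control replicates 2 and 3, the log2FC was 3.70 for Zc3h12a and 2.27 for Zc3h12c, and both calls held.

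Zfp36 encodes tristetraprolin, the ARE-binding protein that limits Tnf. The gene (ENSMUSG00000044786, chr7:28376784-28380253, minus strand) had 48.0, 50.4 and 50.4 CPM in control and 71.5, 72.4 and 71.1 CPM in LPS libraries, and the groups were well apart. The means were 49.6 ± 1.39 and 71.7 ± 0.651 CPM (SD, n = 3), a log2FC of 0.53 (SE 0.05, 95% interval 0.42 to 0.64) or 1.44-fold, at an edgeR adjusted P-value of 1.14e-06. An antisense gene that overlaps it, Gm44710, had at most 9 counts in a library.

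Zfp36l2 was the most abundant family member in every library. It (ENSMUSG00000045817, chr17:84183931-84187947, minus strand) had 169, 179 and 178 CPM in control and 181, 192 and 178 CPM in LPS libraries, so the groups overlapped. The means were 175 ± 5.65 and 184 ± 7.01 CPM (SD, n = 3) and the log2FC was 0.07 (95% interval -0.03 to 0.17), with an edgeR adjusted P-value of 0.295. It was 0.03 without control replicate 1 and 0.04 without LPS replicate 2, and its sign turned with total count scaling, where it was -0.03.

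Zfp36l1, the third ARE-binding relative, was close to the counting floor. Its gene (ENSMUSG00000021127, chr12:80107754-80113013, minus strand) had 10, 5 and 9 counts in control and 3, 7 and 5 counts in LPS libraries, or 0.450 ± 0.153 and 0.307 ± 0.118 CPM (SD, n = 3). The groups overlapped and the gene was below the filter on low counts. A difference was not detectable at this depth.

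Rc3h1 encodes Roquin-1, which binds stem-loops and recruits the CCR4-NOT complex. The gene (ENSMUSG00000040423, chr1:160906418-160974978, plus strand) had 73.0, 78.3 and 74.9 CPM in control and 89.6, 93.1 and 91.1 CPM in LPS libraries. The groups did not overlap, with means of 75.4 ± 2.66 and 91.3 ± 1.76 CPM (SD, n = 3) and a log2FC of 0.28 (SE 0.05) at an edgeR adjusted P-value of 0.000368. With total count scaling it was 0.18 (adjusted P-value 0.00842) and the call held.

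Rc3h2, which encodes the paralogue Roquin-2, was the lower of the pair. The gene (ENSMUSG00000075376, chr2:37370069-37422903, minus strand) had 31.9, 35.8 and 37.8 CPM in control and 33.7, 39.0 and 38.2 CPM in LPS libraries, and the groups overlapped. Its log2FC was 0.07 (95% interval -0.10 to 0.25; edgeR adjusted P-value 0.541), and the sign turned with total count scaling (-0.03) and without control replicate 1 (-0.0026).

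Elavl1 encodes HuR, the stabilising ARE-binding protein of the group. The gene (ENSMUSG00000040028, chr8:4285382-4325413, minus strand) had 119, 117 and 125 CPM in control and 136, 138 and 132 CPM in LPS libraries, and the groups did not overlap. The means were 120 ± 4.42 and 135 ± 3.31 CPM (SD, n = 3) and the log2FC was 0.17 (SE 0.05, 95% interval 0.07 to 0.27), at an edgeR adjusted P-value of 0.0107. This call was lost with total count scaling (0.07, adjusted P-value 0.246), with upper quartile scaling (0.12, 0.0584), without control replicate 2 (0.14, 0.0611) and without both control replicates 2 and 3 (0.19, 0.0656). Ccl25, on the opposite strand, overlaps the 5′ end of Elavl1 and had 73 to 111 counts a library, against 2035 to 2328 for Elavl1. The strand setting of the counting is not given in the sources used here.

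Khsrp encodes KSRP, a KH-domain protein that promotes the decay of ARE messages, and was the only decay factor called lower. The gene (ENSMUSG00000007670, chr17:57021051-57031522, minus strand) had 241, 248 and 255 CPM in control and 221, 237 and 219 CPM in LPS libraries. The highest LPS library lay just below the lowest control, and the means were 248 ± 7.02 and 226 ± 9.94 CPM (SD, n = 3). The log2FC was -0.13 (SE 0.05, 95% interval -0.23 to -0.03) at an edgeR adjusted P-value of 0.0364. The call was lost without LPS replicate 1 (-0.12, adjusted P-value 0.104), LPS replicate 3 (-0.11, 0.133), control replicate 2 (-0.14, 0.0626) or control replicate 3 (-0.12, 0.135), and without both control replicates 2 and 3 (-0.09, 0.391). It held without control replicate 1 and without LPS replicate 2 (-0.17 each), and the value was larger in size with total count scaling (-0.23, 9.87e-04) and upper quartile scaling (-0.18, 0.00606).

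**Figure D2:**
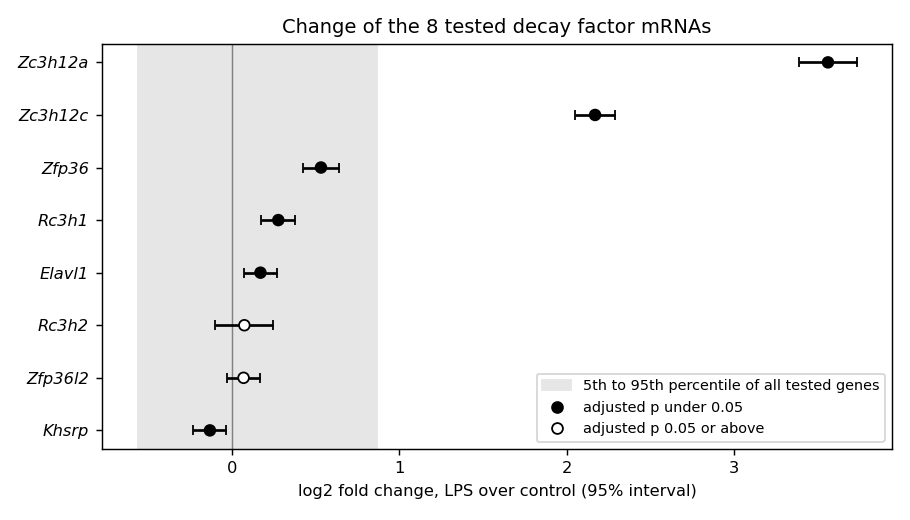
log2FC of LPS over control for the 8 decay factors tested, with 95% intervals from edgeR's quasi-likelihood fit. Zc3h12a (3.56) and Zc3h12c (2.17) stand apart from the other 6, whose values lie between -0.13 (Khsrp) and 0.53 (Zfp36).

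Levels of different genes were compared as CPM per kb of the gene length in the count table. In control cells the order was Khsrp (57.3), Zfp36l2 (49.6), Zfp36 (14.3), Elavl1 (11.6), Rc3h1 (6.67), Zc3h12c (6.36), Zc3h12a (2.37), Rc3h2 (1.79) and Zfp36l1 (0.151). Neighbours in this order did not overlap over the 3 libraries, except Rc3h1 and Zc3h12c. With LPS the Regnase genes moved past Zfp36: the order was Khsrp (52.3), Zfp36l2 (52.0), Zc3h12c (28.7), Zc3h12a (28.1), Zfp36 (20.7), Elavl1 (13.0), Rc3h1 (8.07), Rc3h2 (1.88) and Zfp36l1 (0.103). Here Khsrp overlapped Zfp36l2, and Zc3h12c overlapped Zc3h12a. The order depends on the length used: per kb of 1 transcript a gene, Elavl1 (20.9) stood above Zfp36 (17.8) and Rc3h2 (4.0) above Zc3h12a (2.48) in control cells, and with LPS both Regnase genes (32.0 and 29.4) were again above Zfp36 (25.7).

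**Figure D3:**
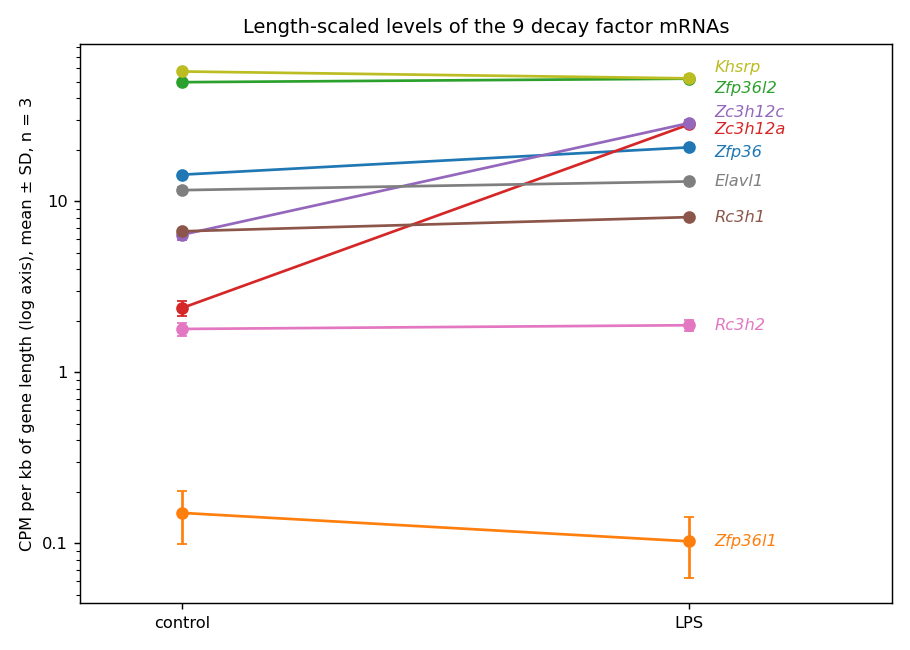
Mean CPM per kb of gene length (log axis) of the 9 decay factor mRNAs in control and LPS libraries, with SD over 3 libraries. The lines of Zc3h12a (2.37 to 28.1) and Zc3h12c (6.36 to 28.7) cross those of Zfp36, Elavl1 and Rc3h1, while Zfp36l1 stays near 0.1.

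Within each family the make-up of the message pool was followed library by library, a measure that does not depend on how libraries are scaled. Zc3h12a made up 26.8%, 26.6% and 28.0% of the length-scaled level of the Regnase pair in control and 50.8%, 49.3% and 48.6% in LPS libraries, so per length the pair went from mainly Zc3h12c to about equal parts. In counts without division by length, the mean share was 13.6% in control and 29.3% in LPS libraries, so Zc3h12c kept the larger part of the reads. The mean share was 27.1% ± 0.781 in control and 49.6% ± 1.09 in LPS libraries (SD, n = 3), a difference of 22.4 percentage points. Zfp36 made up 22.3% ± 0.0586 of the Zfp36 family level in control and 28.4% ± 0.594 in LPS libraries (SD, n = 3), and Zfp36l2 nearly all the rest. Rc3h1 made up 78.8% ± 1.22 and 81.1% ± 0.945 of the Roquin pair (SD, n = 3). Each of these 3 shares gave P = 0.1 in the exact two-sided permutation test. This is the smallest value that 3 against 3 libraries allow, so the test cannot reach 0.05.

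**Figure D4:**
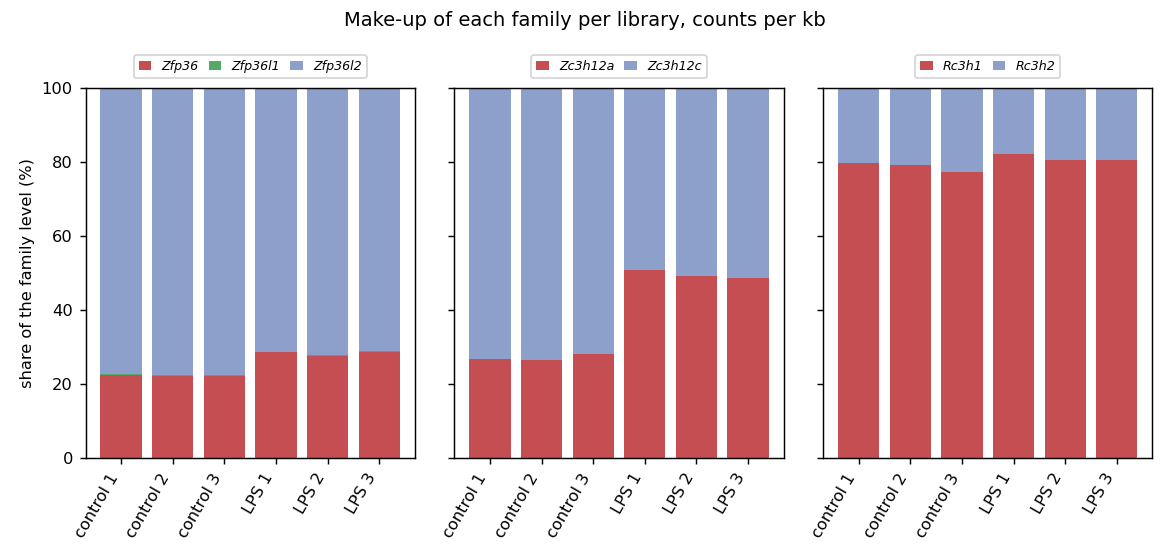
Share of each gene in the length-scaled level of its family (%), 1 bar a library, for the Zfp36 family, the Regnase pair and the Roquin pair. Zc3h12a goes from between 26.6% and 28.0% in the controls to between 48.6% and 50.8% with LPS, and Zfp36l1 is barely visible in any bar.

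Summed over its members, the Regnase pair went from 8.73 ± 0.685 to 56.8 ± 1.30 CPM per kb (SD, n = 3), a ratio of 6.5. The Zfp36 family sum was 64.1 ± 1.96 and 72.8 ± 2.20 CPM per kb (ratio 1.14), and the Roquin sum was 8.46 ± 0.339 and 9.96 ± 0.291 CPM per kb (ratio 1.18). The 9 genes together had 150.2 ± 4.62 and 204.9 ± 3.71 CPM per kb (ratio 1.36). All 4 sums gave P = 0.1, the smallest possible, in the exact two-sided permutation test (n = 3).

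The balance of a destabilising and a stabilising ARE-binding message was read as the log2 ratio of Zfp36 to Elavl1 per gene length. It was 0.27, 0.37 and 0.27 in control and 0.65, 0.65 and 0.69 in LPS libraries, all LPS libraries above all controls, with means of 0.30 ± 0.06 and 0.66 ± 0.02 (SD, n = 3). The difference of 0.36 gave P = 0.1 in the exact two-sided permutation test. The difference does not depend on the lengths, but which of the messages is the more abundant does: on the lengths of 1 transcript the means were -0.24 and 0.13.

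Among 16 other proteins that act on ARE or stem-loops, 11 genes were tested, 3 were higher, 1 was lower and 7 did not pass. The higher calls were 27.3%, against 18.7% of all genes tested, and the lower calls 9.09%, against 15.7%. The median log2FC of the list was 0.02. N4bp1, which encodes a nuclease related to the Regnases, rose from 37.9 to 90.1 CPM (log2FC = 1.25, SE 0.06, edgeR adjusted P-value 8.52e-10). Arid5a, which encodes a protein that protects Il6 mRNA from Regnase-1, rose from 6.92 to 9.13 CPM (log2FC = 0.40, SE 0.13, adjusted P-value 0.0307). That call was lost with DESeq2 (adjusted P-value 0.121), total count scaling (0.0868) and upper quartile scaling (0.0542), and without LPS replicate 1 (0.116), LPS replicate 2 (0.055), control replicate 1 (0.0797) or control replicate 3 (0.113). The third gene called higher was Zc3h12d (Regnase-4), which is too low for the rule on named genes and is given because it completes the count, at 6, 2 and 2 counts in control and 27, 31 and 13 in LPS libraries. It passed the filter on low counts through its LPS libraries, so its call is not read further and the count of 3 supports nothing about the list. Zc3h12b, the remaining Regnase, had 2 to 8 counts in every library. Pum2, a Pumilio repressor, fell (log2FC = -0.14, adjusted P-value 0.0236), a call lost without LPS replicate 2 or 3 or control replicate 2 or 3. Hnrnpd (AUF1) had a log2FC of 0.02 (adjusted P-value 0.808). Without both control replicates 2 and 3, 1 gene of this list was called higher and 0 lower, with adjusted P-values of 0.137 for Arid5a (log2FC = 0.44), 0.0799 for Zc3h12d (2.04) and 0.433 for Pum2 (-0.075).

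The deadenylation machinery that the Zfp36 and Roquin proteins recruit gave 4 genes higher and 1 lower of 19, all tested, while 14 did not pass. The higher calls (21.1%) were near the 18.7% of all genes tested and the lower calls (5.26%) were below the 15.7%. The list had a median log2FC of 0.01. Cnot1, the scaffold of CCR4-NOT, had a log2FC of -0.06 (edgeR adjusted P-value 0.39), and none of the 11 Cnot genes was called, but 5 of them were lower with total count scaling (as were 27.2% of all genes tested), 2 with upper quartile scaling (20.3%) and 1 (Cnot3) without control replicate 1. The genes called with TMM scaling encode proteins that attach to the complex or to the poly(A) tail. Btg1 rose from 26.1 to 49.5 CPM (log2FC = 0.92, adjusted P-value 5.11e-08) and Btg2 from 3.75 to 6.02 CPM (log2FC = 0.68, adjusted P-value 0.00695). Tob2 (log2FC = 0.21, adjusted P-value 0.0235) and the poly(A)-binding protein gene Pabpc1 (log2FC = 0.19, adjusted P-value 0.00133) rose slightly, the latter not with total count scaling (0.09, adjusted P-value 0.0657). Tob1, of the same BTG and TOB family, fell from 45.2 to 34.2 CPM (log2FC = -0.40, adjusted P-value 4.18e-04). With total count scaling 2 genes of this list were higher and 6 lower (of all genes tested, 12.4% and 27.2% under that scaling), and without control replicate 1 there were 2 lower. Without both control replicates 2 and 3, the call of Tob2 was lost (log2FC = 0.28, adjusted P-value 0.0601), as it was with DESeq2, with either other scaling and without LPS replicate 1 or 2 or control replicate 1 or 3 (0.0522 to 0.196).

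Decapping and decay from the 5′ end follow deadenylation. Of 18 genes, all tested, 4 were higher (22.2%, against 18.7% of all genes tested), 1 was lower (5.56%, against 15.7%) and 13 did not pass, with a median log2FC of 0.08. Dcp2, the decapping enzyme, rose from 106 to 151 CPM (log2FC = 0.52, edgeR adjusted P-value 2.41e-06), and its activator Dcp1a also rose (log2FC = 0.28, adjusted P-value 0.00379). The exonuclease gene Xrn1 (log2FC = 0.23, adjusted P-value 0.0463) and the helicase gene Ddx6 (log2FC = 0.17, adjusted P-value 0.0275) were called higher and Lsm2 lower (log2FC = -0.15, adjusted P-value 0.036). The calls of Xrn1 and Ddx6 were each lost without LPS replicate 2 or 3 or control replicate 1 or 3, with total count scaling (adjusted P-values 0.246 and 0.347) and with upper quartile scaling (0.101 and 0.1). The Xrn1 call was also lost with DESeq2 (0.0743) and with RLE size factors (0.0556), and the Lsm2 call was lost with DESeq2 (0.0589). Only 2 genes were called higher without LPS replicate 2 or without control replicate 3, and 0 were called lower without LPS replicate 2, LPS replicate 3 or control replicate 3. Without both control replicates 2 and 3, the calls of Ddx6 (log2FC = 0.22, adjusted P-value 0.0629) and Lsm2 (-0.15, 0.207) were lost and Edc3, a decapping enhancer, was gained (0.27, 0.0389).

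The exosome degrades RNA from the 3′ end. Its calls, 13.3% of the genes tested in each direction, did not exceed those of all genes (18.7% higher and 15.7% lower). Of 16 genes 15 were tested, 2 were higher (Exosc4, log2FC = 0.27, edgeR adjusted P-value 0.0119, and Exosc3, log2FC = 0.20, 0.0302) and 2 were lower (Dis3l, log2FC = -0.32, 0.00159, and Exosc8, log2FC = -0.20, 0.0253). The median log2FC was 0.01. The Exosc3 call was lost with DESeq2 (0.097), total count scaling (0.245) and upper quartile scaling (0.0952), the Exosc4 call with total count scaling (0.0873) and the Exosc8 call with DESeq2 (0.0526), all as adjusted P-values. The count of genes called higher was 1 (Exosc4) without LPS replicate 1, LPS replicate 3 or control replicate 3 and 0 without control replicate 2, and the count called lower was 1 (Dis3l) without LPS replicate 2, LPS replicate 3 or control replicate 3. Without both control replicates 2 and 3, the calls of Exosc4 (log2FC = 0.20, adjusted P-value 0.214), Exosc3 (0.14, 0.336) and Exosc8 (-0.23, 0.0897) were lost and Exosc2 was gained (-0.24, 0.0447).

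The last group of regulators holds the enzymes and adaptors known to act on the decay factors. Of 14 genes, all tested, 8 were higher (57.1%, against 18.7% of all genes tested), 1 was lower (7.14%, against 15.7%) and 5 did not pass, with a median log2FC of 0.25. Mapkapk2 (MK2), the kinase that phosphorylates Zfp36 and thereby restrains it, rose from 468 to 1053 CPM (log2FC = 1.17, SE 0.03, edgeR adjusted P-value 1.39e-12). Dusp1, the phosphatase that switches off the upstream kinase p38, rose from 11.1 to 38.8 CPM (log2FC = 1.80, SE 0.09, adjusted P-value 1.01e-09). Mapk14, which encodes p38 alpha, fell from 151 to 134 CPM (log2FC = -0.17, adjusted P-value 0.00535), a call lost without both control replicates 2 and 3 (-0.16, adjusted P-value 0.0938). Smaller rises were seen for Mapkapk3 (log2FC = 0.40, adjusted P-value 8.31e-04), Ikbkb, a kinase that marks Regnase-1 for degradation (log2FC = 0.38, 9.34e-06), Ppp2ca, the catalytic subunit of the phosphatase PP2A (log2FC = 0.28, 1.72e-04), and Malt1, the protease that cleaves Regnase-1 and the Roquins (log2FC = 0.28, 0.00158). The Malt1 call was also lost without both control replicates (0.22, 0.0685).

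Messages reported as targets of these factors are mostly cytokine genes, many of them known LPS responses. Of 24, 17 were tested, 14 were higher (against 18.7% of all genes tested), 0 were lower (against 15.7%) and 3 did not pass, with a median log2FC of 2.08, and 12 of the 14 were DEG (against 2.4%). Il1a, Il1b and Csf3, at 5 counts or fewer in every control, and Lcn2 passed the filter on low counts through their LPS libraries, so this count and median describe the tested genes and support nothing about the list. The DEG with the highest adjusted P-value was Lcn2, outside the rule on named genes, at 1, 15 and 8 counts in control and 19, 37 and 12 in LPS libraries (log2FC = 1.62, edgeR adjusted P-value 0.0429). Its call was lost with DESeq2 (0.0665), with total count scaling (0.0515) and without LPS replicate 1 (0.0691), LPS replicate 2 (0.267), control replicate 1 (0.128) or control replicate 3 (0.122). Tnf, which carries both motifs shown above, rose from 15.8 to 233 CPM (log2FC = 3.88, SE 0.06, edgeR adjusted P-value 1.56e-15). Cxcl2, a neutrophil chemokine gene, rose from 1.13 to 109 CPM (log2FC = 6.60, SE 0.10). Il1b had 3, 5 and 0 counts in control and 155, 172 and 122 counts in LPS libraries. Il1a had 1 count over the 3 control and 821 over the 3 LPS libraries, a ratio of 901 with a 95% counting interval of 161 to 35647. Csf3 had 5 and 346 counts, a ratio of 76.0 with an interval of 32.2 to 235. These exact (Clopper-Pearson) intervals cover counting error only. Il6, the best studied Regnase-1 target, was not tested: it had 0 counts in every control and 10, 14 and 9 counts in LPS libraries, at least 4.02-fold higher against a floor of 3 counts a library. Without both control replicates 2 and 3 it passed the filter, through its LPS libraries alone, and was called higher. The lone control had 0 counts, so this call supports nothing about Il6. The tested targets that did not pass were Tfrc (log2FC = 0.08, adjusted P-value 0.0518), Vegfa (0.18, 0.0864) and Icosl (-0.27, 0.245). In the 3′ UTRs of the 24 targets, the nonamer was found in 8 (33.3%, against 6.91% of all 3′ UTRs). The stem-loop was found in 10 (41.7%, against 9.75%). These genes were listed as reported targets of proteins that bind such letters. Both shares thus depend on how the list was chosen and support nothing about it.

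**Figure D5:**
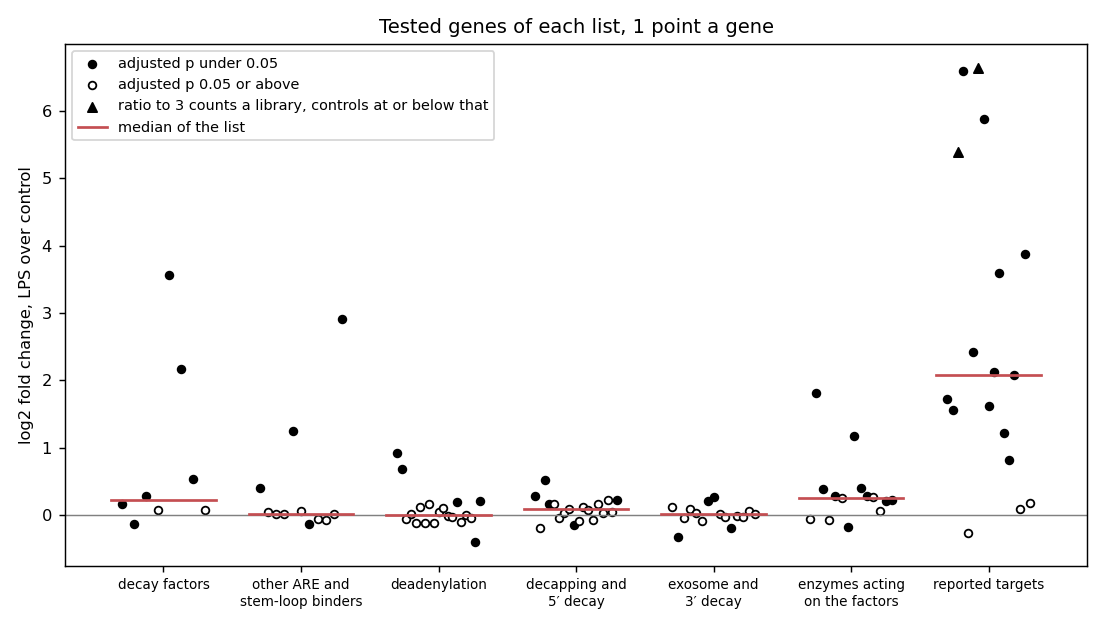
log2FC of LPS over control for every tested gene of the 9 decay factors and of 6 lists of related genes, 1 point a gene, filled where the adjusted P-value was under 0.05, with list medians as lines. Triangles are Il1a and Csf3, drawn as the ratio to 3 counts a library. The medians lie between 0.01 and 0.25 except for the reported targets (2.08).

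The genes whose pattern over the 6 libraries was most like that of the Regnase genes were sought among 10450 other genes (mean count 50 or more), by the distance between deviations of log2(CPM + 0.5) from each gene's own mean. For Zc3h12a these were Ifih1 (distance 0.227), the RNA sensor MDA5, Tnn (0.228), tenascin N, and Irgm2 (0.231), an immunity-related GTPase. For Zc3h12c they were Phf11b (0.163), Cd274 (0.168), the checkpoint ligand PD-L1, and Casp4 (0.182), the caspase that senses cytosolic LPS. With 2 groups of 3 libraries, this measure weighs mainly the size of the difference on the log2(CPM + 0.5) scale. Tnn, at 0.129 CPM in control and 7.26 CPM in LPS libraries, has a control level below the 0.5 added, so its distance depends on that constant.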

How the data were processed

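RNA-seq counts from 6 libraries of N9 microglia were used, grouped by the labels' treatment. The authors deposited raw read counts per gene, not normalized, with a gene length for each gene. The submitters' processing notes name featureCounts 1.5.0-p3 and mm10, and the aligner, annotation release and strand setting are not given in the sources used here. A deposited table of the authors' own comparison (fold changes and P-values) was not used, nor its 18 columns of values per sample and 2 of group means.

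From the counts, edgeR 4.0.16 under R 4.3.3 fitted LPS against control over all genes (TMM, filterByExpr, prior count 0.125, quasi-likelihood test, no replicate term), after the script had been tested on simulated data. P-values were adjusted by Benjamini-Hochberg across 12296 genes. SE is the log2FC divided by the square root of F. DESeq2 1.42.0, other scalings and filters, a replicate block and each library left out were alternatives. Exact permutation tests used scipy 1.17.1. The 9 genes and all lists were chosen with earlier results of these data known. From each list of related genes, the text names up to 5 with the largest absolute log2FC among called genes whose mean count is 50 or more, and Mapk14, Mapkapk2, Dusp1, Malt1, Cnot1, Arid5a, Hnrnpd, Tnf and Il6 whatever their values. Cell type markers and genes overlapping a decay factor are also named, and Zc3h12b, Zc3h12d, Cnot3, Edc3, Exosc2, Ppp2cb, Lcn2, Tfrc, Vegfa and Icosl were named after their values were seen, to complete a count or a changed call. No 2 libraries of a group agreed within sampling noise. Reads carry no molecular identifiers, so counting limits cover counting error only. 3′ UTR sequences are from GRCm38 with GENCODE release M21.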

Additional observations from a re-analysis of the deposited data

How the results depend on the processing

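Zc3h12a, Zc3h12c, Zfp36 and Rc3h1 were called higher under every alternative run, and the count of DEG stayed at 2. When libraries were left out singly, log2FC ranged from 3.49 to 3.65 for Zc3h12a, from 2.11 to 2.22 for Zc3h12c, from 0.50 to 0.54 for Zfp36, from 0.24 to 0.30 for Rc3h1, from 0.03 to 0.09 for Zfp36l2, from 0.14 to 0.19 for Elavl1, from -0.17 to -0.11 for Khsrp and from -0.0026 to 0.13 for Rc3h2. In the same runs the decay factors called lower numbered 0 to 1. Genes called lower numbered 0 to 1 among other ARE and stem-loop binders, 1 to 2 in deadenylation, 0 to 1 in decapping and 1 to 2 in the exosome, and genes called higher numbered 2 to 3 among binders, 2 to 5 in decapping and 0 to 3 in the exosome.

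Total count scaling and upper quartile scaling, chosen after seeing the data, took the log2FC of Elavl1 to 0.070 and 0.12, and total count scaling turned Zfp36l2 to -0.031 and Rc3h2 to -0.026. The same scalings took Khsrp to -0.232 and -0.182, and total count scaling took Rc3h1 to 0.177, with both calls held. With total count scaling, where 12.4% of all genes tested were higher and 27.2% lower, calls were 2 lower among binders, 2 higher and 6 lower in deadenylation, 2 higher and 2 lower in decapping, 0 higher in the exosome and 2 lower among the enzymes acting on the factors. With upper quartile scaling (15% and 20.3%) they were 2 lower among binders, 3 lower in deadenylation, 2 higher in decapping and 1 higher in the exosome. DESeq2 called 0 lower in decapping and 1 higher and 1 lower in the exosome. Of the 22309 genes it tested, it called 8.88% higher and 7.24% lower, and 13916 of them had an adjusted P-value. Leaving out both control replicates 2 and 3, also chosen after seeing the data, left a lone control assumed to vary like the LPS libraries. It gave log2FC values of 0.19 for Elavl1, -0.091 for Khsrp, 0.21 for Rc3h2, 0.12 for Zfp36l2 and -0.90 for Zfp36l1. None of these genes was called in this setting, so the calls of Elavl1 and Khsrp were lost. Calls that changed in the other lists are named with each list. The cause of these shifts was not tested. The rise in the Zfp36 share was 6.71 percentage points on lengths of 1 transcript, and that in the Zc3h12a share was 15.7 without division by length.

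Same-numbered control and LPS libraries had correlations of their deviations from group means of 0.135, 0.054 and 0.0298, so the numbers were not taken as pairs, and control replicate 3 correlated better with LPS replicate 2 (0.0395). With a replicate block, 2454 genes were higher and 2020 lower in place of 2294 and 1927, 5 decay factors were higher and 1 lower, and the Zc3h12a share differed by 22.4 percentage points (exact sign-flip P = 0.25, the smallest that 3 pairs allow). The block also gained the calls of Edc3 (adjusted P-value 0.0452) and Ppp2cb (0.0331) in the other lists and lost none there. Ppp2cb was also called higher with no filter on low counts (log2FC = 0.25, edgeR adjusted P-value 1.59e-04) and without LPS replicate 3 (0.42, 6.43e-05). With protein-coding genes alone, Edc3 (0.0429) and Tfrc (0.0401) were gained, and Tfrc also with robust dispersion (0.0386). Depth limits Zfp36l1 and Il6, which had at most 10 and 14 counts a library.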
